A study of Mus musculus with 12 samples.

Results

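The genes A2m, Medag, Cavin2, Tek and Fam171b reached their largest mean level in HiMed, the second brightest of 4 bins of cells sorted for a Sox2 reporter. These 5 members were chosen by their mean level per bin, HiMed being the largest, so their height there is described without a test. The deposited tables hold 52670 gene symbols. All 5 members were among the 17432 genes with enough counts to be tested, and 2941 of those 17432 (16.9%) had their largest bin mean in HiMed. Ptch1 and Lgr5, which are not members, were set beside them to relate the shapes.

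The cells came from mouse tongue, from the epithelium that covers the circumvallate papilla and houses its taste buds. Adult Sox2GFP mice of 11 to 12 weeks were used. In these mice green fluorescent protein (GFP) reports the transcription factor Sox2. All groups shared this genotype, no treatment is named, and GFP-negative cells were discarded, which leaves the series with neither a negative nor an unsorted group. The 4 groups were Low, MedLow, HiMed and High GFP, with 3 libraries of polyadenylated RNA each, 12 in all. Each replicate pooled 7 to 13 mice.

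A2m encodes alpha-2-macroglobulin, a secreted trap for proteases that is cleared through the receptor Lrp1. Cavin2 is a coat protein of caveolae, small pits of the plasma membrane. Tek (also called Tie2) is the receptor tyrosine kinase for angiopoietins and is best known from endothelial cells. Medag was named for its part in fat cell formation from mouse precursor cells, and Fam171b encodes a membrane protein. Ptch1 is the receptor for Hedgehog ligands such as Shh. Ligand binding relieves the block that Ptch1 places on Smo, Gli factors then act, and Ptch1 and Gli1 are themselves transcribed in response. Lgr5 is an R-spondin receptor that strengthens Wnt signals, and it marks progenitors of the posterior tongue.

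Libraries held 25.7 to 55.6 M counts. Sox2 followed the sort, at 70.3 ± 6.17, 98.0 ± 1.20, 171 ± 2.64 and 373 ± 12.8 CPM in Low, MedLow, HiMed and High (mean ± SD, n = 3 libraries, as for every value with ± below). CPM values are counts brought to a common library total, with TMM scaling (a trimmed mean of log ratios between libraries). Replicate 1 of HiMed and replicate 1 of High stood apart in the number of symbols with a count, 16524 and 16911, against 18336 to 19696 in the other 10 libraries. Against the label of epithelium, the basal keratin Krt5 averaged 3959 to 13833 CPM over the 4 bins and the epithelial adhesion gene Epcam 169.8 to 581 CPM.

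A2m was the most abundant member. Its level was 2.21, 1.49 and 1.69 CPM in the Low libraries, 86.8, 24.3 and 54.6 CPM in MedLow, 1092, 656 and 787 CPM in HiMed and 252, 285 and 109.7 CPM in High (replicates 1 to 3 in each bin). The bins did not overlap, and they stood in the order Low, MedLow, High, HiMed. The HiMed mean was 470.1-fold above that of Low, 15.3-fold above that of MedLow and 3.92-fold above that of High. In bulk libraries such as these, fewer cells of a type and less RNA per cell cannot be told apart.

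Fam171b had the same order of bins as A2m at a far lower level. It stood at 1.25, 0.726 and 1.40 CPM in Low, 3.16, 2.20 and 3.37 CPM in MedLow, 27.4, 18.2 and 17.5 CPM in HiMed and 9.07, 9.21 and 5.64 CPM in High. No pair of bins overlapped. The HiMed mean of Fam171b was 18.7-fold above Low, 7.24-fold above MedLow and 2.64-fold above High, and 2.64 was the smallest margin over the next bin among the members.

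Cavin2 formed a peak on a nearly level base. It measured 13.9, 13.3 and 12.9 CPM in Low, 23.6, 14.5 and 16.5 CPM in MedLow, 80.2, 57.2 and 60.2 CPM in HiMed and 17.8, 19.8 and 10.3 CPM in High. All 3 HiMed libraries lay above the other 9, while High overlapped with both Low and MedLow. Its HiMed mean was 4.93-fold above Low, 3.62-fold above MedLow and 4.13-fold above High.

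Tek likewise peaked over bins that overlapped. Its values were 4.61, 2.66 and 4.88 CPM in Low, 5.19, 2.32 and 3.55 CPM in MedLow, 24.8, 12.6 and 15.8 CPM in HiMed and 8.80, 6.22 and 3.99 CPM in High. HiMed replicate 1 was 1.74-fold above the mean of the other 2 HiMed libraries, the widest such gap among the members. The lowest HiMed library was still 1.44-fold above the highest other library, High replicate 1.

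Medag had its lowest mean in High, by way of 1 library: without High replicate 1 the High mean was 2.69 CPM, as in Low. It stood at 2.50, 3.15 and 2.41 CPM in Low, 6.33, 3.17 and 5.21 CPM in MedLow, 21.1, 15.5 and 18.9 CPM in HiMed and 0.833, 2.72 and 2.65 CPM in High. High overlapped with Low and lay wholly below MedLow. The HiMed mean of Medag was 6.89-fold above Low, 3.77-fold above MedLow and 8.95-fold above High.

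**Figure D1:**
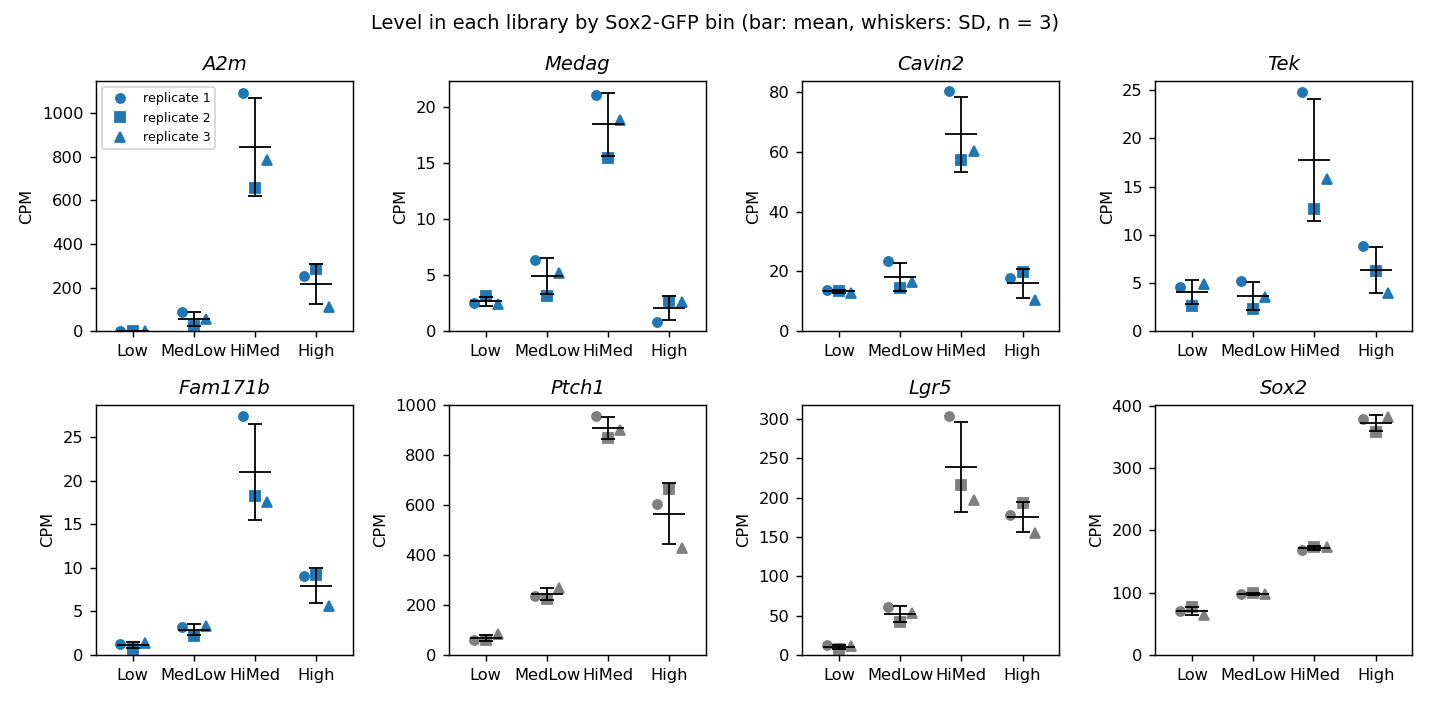
Level in CPM (linear axis from 0) of the 5 members, of Ptch1 and Lgr5 and of Sox2 in each of the 12 libraries, by GFP bin. Points are libraries, with a symbol for each replicate number, and bars with whiskers are means and SD of 3 libraries. All 3 HiMed libraries lie above the other 9 in each member, whereas Sox2 is highest in High, at 373 ± 12.8 CPM.

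In each of the 5 members every HiMed library lay above all 9 others, as it did for 1.96% of the 17432 genes. The choice of members used this contrast, so nothing is read from that count. Within replicate numbers the size of the step differed. HiMed over High ran from 2.30 to 7.17 for A2m over the 3 numbers, from 1.98 to 3.11 for Fam171b, from 2.03 to 3.97 for Tek, from 2.89 to 5.84 for Cavin2 and from 5.70 to 25.4 for Medag. Without replicate 1 of HiMed and of High, libraries chosen after the data were seen, the ratio of HiMed to the next bin was 3.65 for A2m, 3.50 for Medag, 3.22 for Cavin2, 2.79 for Tek and 2.41 for Fam171b. With all libraries these ratios were 3.92, 3.77, 3.62, 2.80 and 2.64.

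Of 2297 genes with HiMed as their largest bin and a mean of at least 1 CPM there, A2m ranked 11th, Medag 12th, Cavin2 17th, Tek 44th and Fam171b 50th by the ratio of HiMed to the next bin. Ptch1 ranked 236th and Lgr5 428th. The members were chosen on these same bin means, so nothing is read from their ranks or from the distance to Ptch1 and Lgr5. On the deposited scale per transcript length (TPM, transcripts scaled to one library total), A2m reached 306 ± 92.4 TPM in HiMed and Cavin2 36.6 ± 8.24 TPM. Medag reached 10.8 ± 1.81 TPM, Fam171b 7.10 ± 3.41 TPM and Tek 6.91 ± 2.80 TPM there. The ranges of mean ± SD of the last 3 overlapped from one to the next. Ptch1 stood at 220.1 ± 30.5 TPM and Lgr5 at 92.4 ± 23.7 TPM in HiMed, so the mean level of A2m per length exceeded both.

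Ptch1 and Lgr5 also had their largest mean in HiMed, but kept more of it in High. Ptch1 measured 61.5, 61.4 and 82.7 CPM in Low, 237, 223 and 268 CPM in MedLow, 957, 870.3 and 900.2 CPM in HiMed and 603, 666 and 429 CPM in High. Its bins did not overlap. Lgr5 measured 12.3, 6.94 and 10.8 CPM in Low, 61.3, 41.4 and 52.8 CPM in MedLow, 304, 217 and 197 CPM in HiMed and 178, 193 and 155 CPM in High. Here the lowest HiMed library was 1.02-fold above the highest High library.

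Ptch1 was higher in HiMed than in High, with a log2 fold change of 0.68 (SE 0.15, adjusted p = 0.0053). Adjusted p-values come from the quasi-likelihood test of edgeR, corrected over all 17432 genes by the Benjamini-Hochberg method, and a call needs an adjusted p below 0.05. In limma on log2(TPM + 1) and log2(TPM + 0.1) this call of Ptch1 was lost, at adjusted p = 0.0502 and 0.0552. Lgr5 was not called between these bins (0.45, SE 0.20, adjusted p = 0.128). Leaving out HiMed replicate 1 moved its fold to 0.24 (adjusted p = 0.439). In a fit of every symbol with a count, Lgr5 was called (0.45, adjusted p = 0.0381). Both genes were higher in HiMed than in MedLow, Ptch1 by 1.90 (SE 0.16, adjusted p = 5.9e-06) and Lgr5 by 2.21 (SE 0.21, adjusted p = 1.7e-05). The median over all genes was 0.01 for HiMed over High and -0.02 for HiMed over MedLow on the log2 scale.

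**Figure D2:**
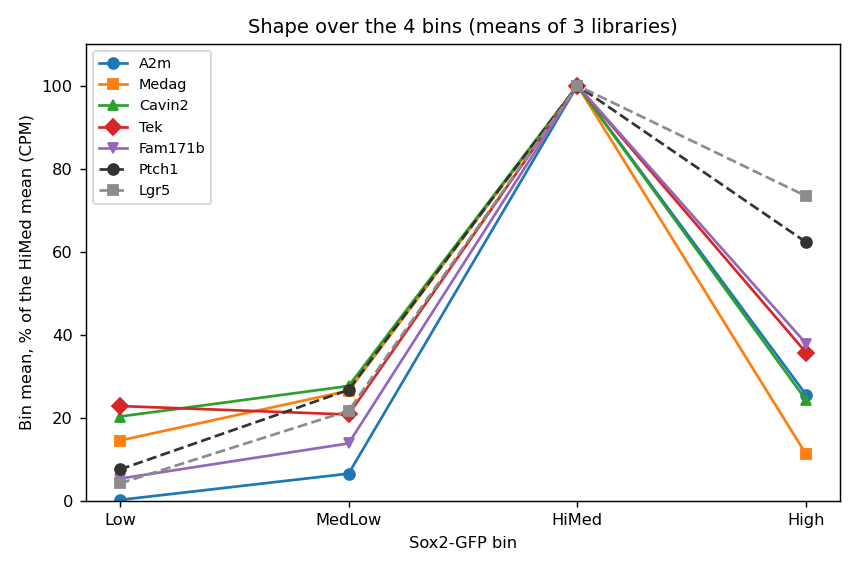
Mean CPM of each bin as a percentage of the gene's HiMed mean, for the 5 members (solid lines) and for Ptch1 and Lgr5 (dashed lines), against GFP bin. In High the members stand at 11.2 to 37.9% of their HiMed mean, Ptch1 at 62.3% and Lgr5 at 73.4%.

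In High, Medag retained 11.2% of its HiMed mean, Cavin2 24.2%, A2m 25.5%, Tek 35.7% and Fam171b 37.9%. Ptch1 retained 62.3% and Lgr5 73.4%. In Low the order was another one, with A2m at 0.213% of its HiMed mean, Lgr5 at 4.18%, Fam171b at 5.34%, Ptch1 at 7.54%, Medag at 14.5%, Cavin2 at 20.3% and Tek at 22.8%.

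The choice of members fixed HiMed as the top and did not fix the order of the other 3 bins, which were compared by test. The members were named with earlier results of these data known. Their p-values between these 3 bins are therefore not those of genes picked independently of the data. A2m and Fam171b were higher in High than in Low, 2 of 5 members, where 20.1% of all genes tested were called higher and 21.2% lower. A2m averaged 216 ± 93.3 CPM in High and 1.80 ± 0.373 CPM in Low, a log2 fold change of 6.88 (SE 0.53, adjusted p = 2.6e-07). Fam171b averaged 7.97 ± 2.02 CPM in High and 1.13 ± 0.354 CPM in Low (2.80, SE 0.31, adjusted p = 7.6e-06). The other 3 members were not called, with fitted changes of 0.64 (SE 0.37, adjusted p = 0.198) for Tek, 0.26 (SE 0.23, adjusted p = 0.419) for Cavin2 and -0.37 (SE 0.38, adjusted p = 0.493) for Medag. Ptch1 (3.05, SE 0.16) and Lgr5 (4.12, SE 0.23) were higher in High than in Low, at adjusted p = 1.1e-08 and 1.3e-08.

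Between the neighbours of the peak, High and MedLow, the members parted in direction. A2m (1.97, SE 0.40, adjusted p = 0.0015) and Fam171b (1.45, SE 0.29, adjusted p = 0.0013) were higher in High, as were 18.2% of all genes. Medag was lower in High, at 2.07 ± 1.07 CPM against 4.90 ± 1.60 CPM in MedLow (-1.24, SE 0.38, adjusted p = 0.0197), as were 19.8% of all genes. The call of Medag was lost without MedLow replicate 1 (adjusted p = 0.0826), without MedLow replicate 3 (0.0506) and in limma on log2(TPM + 1) (0.0861) and log2(TPM + 0.1) (0.0867). Tek averaged 6.34 ± 2.41 CPM in High and 3.69 ± 1.44 CPM in MedLow and was not called (0.78, SE 0.37, adjusted p = 0.119). With the replicate number as a block it was called (0.82, adjusted p = 0.0305). Cavin2 had 15.97 ± 5.01 CPM in High and 18.2 ± 4.76 CPM in MedLow and was not called (-0.19, SE 0.23, adjusted p = 0.575). Ptch1 (1.22, SE 0.15, adjusted p = 2.7e-05) and Lgr5 (1.76, SE 0.20, adjusted p = 1.3e-05) were higher in High than in MedLow, the direction of A2m and Fam171b.

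From Low to MedLow, A2m and Fam171b were again the members called, both higher in MedLow, where 4.08% of all genes were higher and 2.52% lower. A2m reached 55.2 ± 31.3 CPM in MedLow, against 1.80 ± 0.373 CPM in Low (4.91, SE 0.50, adjusted p = 5.9e-05). Fam171b had 2.91 ± 0.623 CPM in MedLow and 1.13 ± 0.354 CPM in Low (1.35, SE 0.31, adjusted p = 0.0178). Its call was lost without Low replicate 1 (adjusted p = 0.0509), Low replicate 2 (0.0680), MedLow replicate 1 (0.0639) or MedLow replicate 3 (0.0732) and on both TPM scales (0.533 with TPM + 1 and 0.224 with TPM + 0.1). Medag (0.87, SE 0.38, adjusted p = 0.248), Cavin2 (0.45, SE 0.23, adjusted p = 0.364) and Tek (-0.14, SE 0.37, adjusted p = 0.939) were not called. Ptch1 (1.82, SE 0.16, adjusted p = 1.1e-05) and Lgr5 (2.36, SE 0.22, adjusted p = 2.1e-05) were higher in MedLow than in Low.

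**Figure D3:**
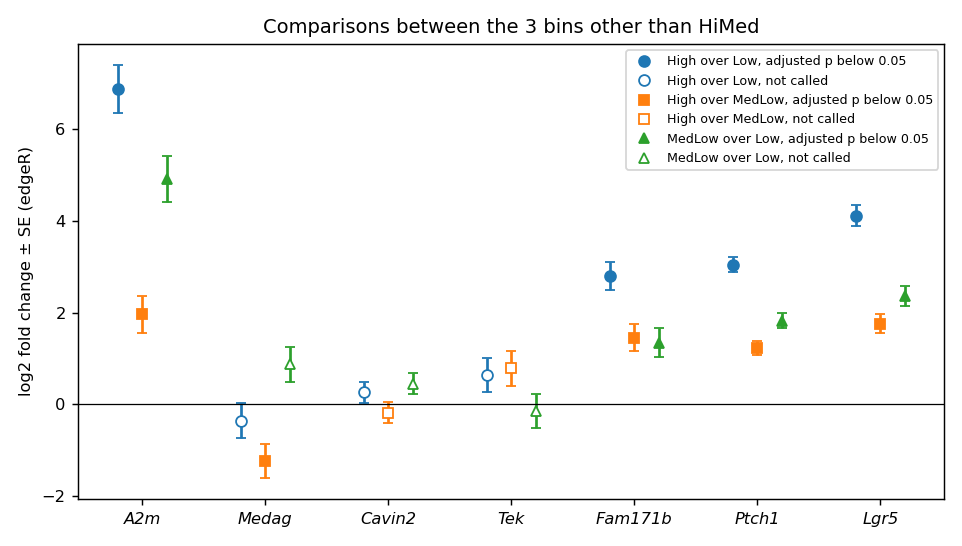
Log2 fold change with its SE from edgeR for High over Low, High over MedLow and MedLow over Low, per member and for Ptch1 and Lgr5. Filled symbols have an adjusted p below 0.05 and open symbols do not. A2m, Fam171b, Ptch1 and Lgr5 are above 0 in all 3 comparisons, and Medag is at -1.24 for High over MedLow.

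The likeness of 2 shapes was measured as profile overlap. Each gene's CPM values were divided by their sum over the 12 libraries, and the smaller of the 2 shares was summed over libraries, so that 1 means the same shape. All genes share the same libraries, and the members were chosen for their height in HiMed, so this is a description. Over the 10 pairs of members the mean overlap was 0.837 (SD 0.00459 over the 3 replicate numbers). The pairs most alike were Medag with Cavin2 (0.904), Cavin2 with Tek (0.897) and A2m with Fam171b (0.881), and the pair least alike was A2m with Cavin2 (0.773).

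Members overlapped with Ptch1 by 0.804 on average (SD 0.0185) and with Lgr5 by 0.776 (SD 0.0383). Fam171b was closest to both, at 0.871 with Ptch1 and 0.852 with Lgr5. Medag was at 0.753 with Ptch1 and 0.705 with Lgr5, and A2m at 0.753 and 0.746. Cavin2 reached 0.822 with Ptch1 and 0.773 with Lgr5, and Tek 0.820 and 0.807. Ptch1 and Lgr5 overlapped with one another by 0.915, more than any pair of members. On log2(CPM + 1), where the dim bins weigh more, Pearson's r over the 12 libraries was 0.988 for A2m with Ptch1, 0.980 for A2m with Lgr5 and 0.954 for Fam171b with Ptch1. It was 0.697 for Cavin2 with Ptch1, 0.728 for Tek with Ptch1 and 0.525 for Medag with Ptch1. A2m thus ranked near the bottom in likeness to Ptch1 by shares and at the top by log values.

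**Figure D4:**
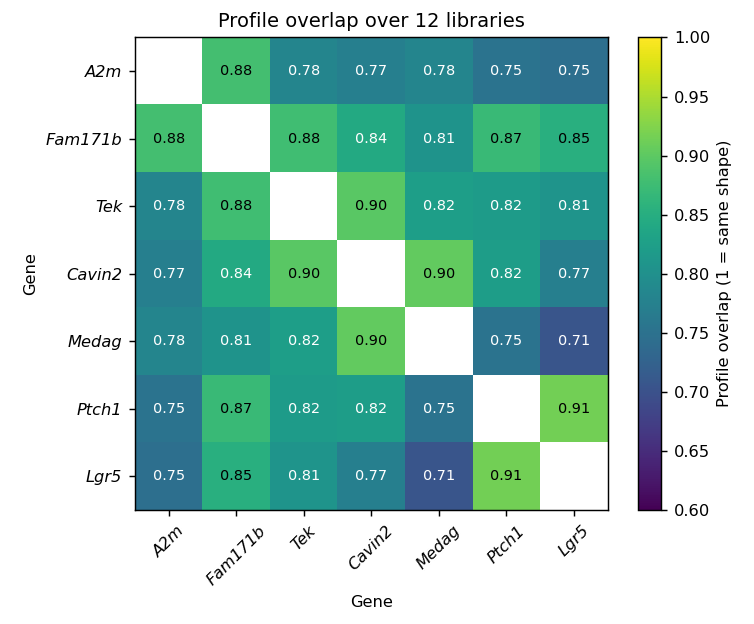
Profile overlap over the 12 libraries for each pair among the 5 members, Ptch1 and Lgr5 (colour and printed value, 1 = same shape). Ptch1 with Lgr5 has the highest value, 0.915, and Medag with Lgr5 the lowest, 0.705.

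Among 10553 genes with a mean of at least 5 CPM in HiMed, leaving out clone and predicted-gene names, the median overlap with the members, averaged over the 5, was 0.598. Ptch1 ranked 21st and Lgr5 40th by that average. The members were chosen for their height in HiMed, so genes highest there overlap with them more by that choice. Nothing is read from these ranks or from their distance to the median. The 10 genes at the top were Slc6a11, Fbn1, Serpina3n, Kcnq3, Fmo2, Dll3, Sult1d1, Cdo1, Abhd12b and Fbln2, with averages between 0.830 and 0.864. Slc6a11, a transporter for the neurotransmitter GABA, had 0.778 ± 0.204, 27.5 ± 5.14, 131 ± 33.5 and 52.5 ± 16.7 CPM in Low, MedLow, HiMed and High. It was the nearest gene to Fam171b (0.928) and, after Fam171b itself, to A2m (0.863). Fbn1, the microfibril protein fibrillin-1, had 5.18 ± 1.84, 7.14 ± 2.24, 36.3 ± 11.0 and 17.9 ± 5.88 CPM. Nearest to Tek were Serpina3n, a secreted protease inhibitor (0.930), Fbn1 (0.911) and the matrix protein gene Fbln2 (0.900). Nearest to Cavin2 were the flavin monooxygenase gene Fmo2 (0.930) and the potassium channel gene Kcnq3 (0.922), and nearest to Medag were Cavin2 (0.904) and the sulfotransferase gene Sult1d1 (0.879). Leaving out 1 library at a time kept between 7 and 10 of the 10 genes at the top, and 4 of 10 stayed when bin means were used in place of libraries.

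The promoters of the members are shown because the genes peak together. RefSeq windows of GRCm38.p6, from 250 bases before to 50 after an annotated start, were at hand for 3 of the 5 members, Cavin2, Tek and Medag. Medag has 2 starts. They are printed along the strand of transcription, with capitals for matches to the motifs searched.
Cavin2, chr1:51288876-51289175, plus strand: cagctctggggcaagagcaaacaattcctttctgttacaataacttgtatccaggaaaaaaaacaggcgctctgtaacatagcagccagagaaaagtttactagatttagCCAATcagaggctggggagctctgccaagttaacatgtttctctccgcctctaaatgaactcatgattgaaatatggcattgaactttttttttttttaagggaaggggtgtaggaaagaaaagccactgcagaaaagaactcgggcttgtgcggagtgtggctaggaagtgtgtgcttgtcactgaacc
Tek, chr4:94739039-94739338, plus strand: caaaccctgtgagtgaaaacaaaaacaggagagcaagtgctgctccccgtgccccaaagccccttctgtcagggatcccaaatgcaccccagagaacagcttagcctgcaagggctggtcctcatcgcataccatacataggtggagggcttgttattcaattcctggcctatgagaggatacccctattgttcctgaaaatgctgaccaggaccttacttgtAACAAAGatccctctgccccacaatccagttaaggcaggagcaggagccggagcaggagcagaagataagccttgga
Medag start 1, chr5:149411499-149411798, plus strand: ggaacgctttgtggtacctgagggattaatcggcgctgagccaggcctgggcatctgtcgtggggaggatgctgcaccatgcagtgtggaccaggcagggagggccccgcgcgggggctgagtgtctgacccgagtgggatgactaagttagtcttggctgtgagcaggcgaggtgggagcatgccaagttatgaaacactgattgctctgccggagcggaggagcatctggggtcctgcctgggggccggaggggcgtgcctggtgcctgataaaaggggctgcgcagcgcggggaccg
Medag start 2, chr5:149413588-149413887, plus strand: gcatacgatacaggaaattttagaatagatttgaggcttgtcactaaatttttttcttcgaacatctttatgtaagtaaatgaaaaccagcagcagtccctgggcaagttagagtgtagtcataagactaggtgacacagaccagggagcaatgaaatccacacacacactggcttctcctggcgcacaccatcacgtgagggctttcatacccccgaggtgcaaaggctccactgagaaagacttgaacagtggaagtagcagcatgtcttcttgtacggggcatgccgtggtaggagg

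The motifs searched on both strands were GACCACCCA for Gli factors, CATTGT for Sox factors, ATCAAAG for Tcf and Lef factors, AACAAAG for the core shared by Sox and Tcf factors, TATAAA for the TATA box, TGACTCA for AP-1 and CCAAT for the CCAAT box. AACAAAG and CCAAT were added after the windows had been read. In the Tek window AACAAAG begins 27 bases before the start, and 5.85% of the 32851 windows of this length hold it. In the Cavin2 window CCAAT begins 140 bases before the start, and 37.4% of windows hold it. No other match was found in the 4 windows, where GACCACCCA is held by 0.253% of all windows, CATTGT by 12.6%, ATCAAAG by 3.73%, TATAAA by 13.6% and TGACTCA by 5.20%. Bases G and C made up 43.3% of the Cavin2 window, 52.0% of that of Tek and 64.3% and 46.7% of those of Medag, against 76.3% in the Ptch1 window and a median of 52.7% over all windows.

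Hedgehog genes were set beside the members because Ptch1 both receives and reports that signal. The ligand Shh was highest in High, and the receptor Ptch1 and the target Gli1 were highest in HiMed. Of 14 genes with Ptch1 among them, all tested, 6 had their largest mean in HiMed, where 16.9% of all genes did. Ihh was among the 6, at 0.484 ± 0.0672 CPM in HiMed, and was not called there against any other bin. Shh averaged 0.140 ± 0.121, 0.0686 ± 0.119, 8.98 ± 6.41 and 128 ± 6.48 CPM in Low, MedLow, HiMed and High. Between HiMed and High it was lower in HiMed (-3.83, SE 0.49, adjusted p = 1.0e-04). Gli1, the transcribed target and effector, averaged 279 ± 26.1 CPM in HiMed and 141 ± 39.5 CPM in High (0.99, SE 0.16, adjusted p = 6.5e-04). Gli2, another Gli factor, averaged 129 ± 9.88 CPM in HiMed and 62.9 ± 17.2 CPM in High (1.04, SE 0.16, adjusted p = 4.3e-04).

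Between HiMed and High, 6 of the 14 Hedgehog genes were higher in HiMed and 2 lower, where 11.6% of all genes were higher and 10.6% lower, and the list's median was 0.58. Boc, a co-receptor, had the largest rise among the 6 called (1.27, SE 0.12, adjusted p = 8.6e-06), and the inhibitor Sufu (0.73) and Smo (0.48) were among the 6. The calls of Ptch1 and Sufu were lost on both TPM scales, Sufu at adjusted p = 0.0548 with TPM + 1 and 0.0552 with TPM + 0.1. Between HiMed and MedLow, 3 were higher in HiMed (Shh, Ptch1 and Gli1) and 3 lower (Boc, Cdon and Gas1), where 7.38% of all genes were higher and 6.12% lower, with a median of 0.23. Cdon (-0.46, adjusted p = 0.0140) lost that call without MedLow replicate 1 (0.0546), MedLow replicate 2 (0.0544) or HiMed replicate 3 (0.0579) and on both TPM scales (0.763 and 0.747).

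The co-receptor Gas1 ran opposite to the members. It averaged 143 ± 13.6, 89.6 ± 1.33, 22.8 ± 7.47 and 89.4 ± 23.2 CPM in Low, MedLow, HiMed and High. It was lower in HiMed than in MedLow (-1.98, SE 0.22, adjusted p = 6.2e-05) and than in High (-1.97, SE 0.22, adjusted p = 3.1e-05). The secreted inhibitor Hhip had its largest mean in HiMed, at 3.65 ± 1.46 CPM, against 0.451 ± 0.393 CPM in MedLow and 0.638 ± 0.403 CPM in High, and was not called by edgeR (adjusted p = 0.0706 and 0.0907). DESeq2 called Hhip in both comparisons (3.04, adjusted p = 0.0063, and 2.52, adjusted p = 0.0208). edgeR called it over MedLow with no count filter (adjusted p = 0.0352) and over High without MedLow replicate 2 (adjusted p = 0.0174).

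**Figure D5:**
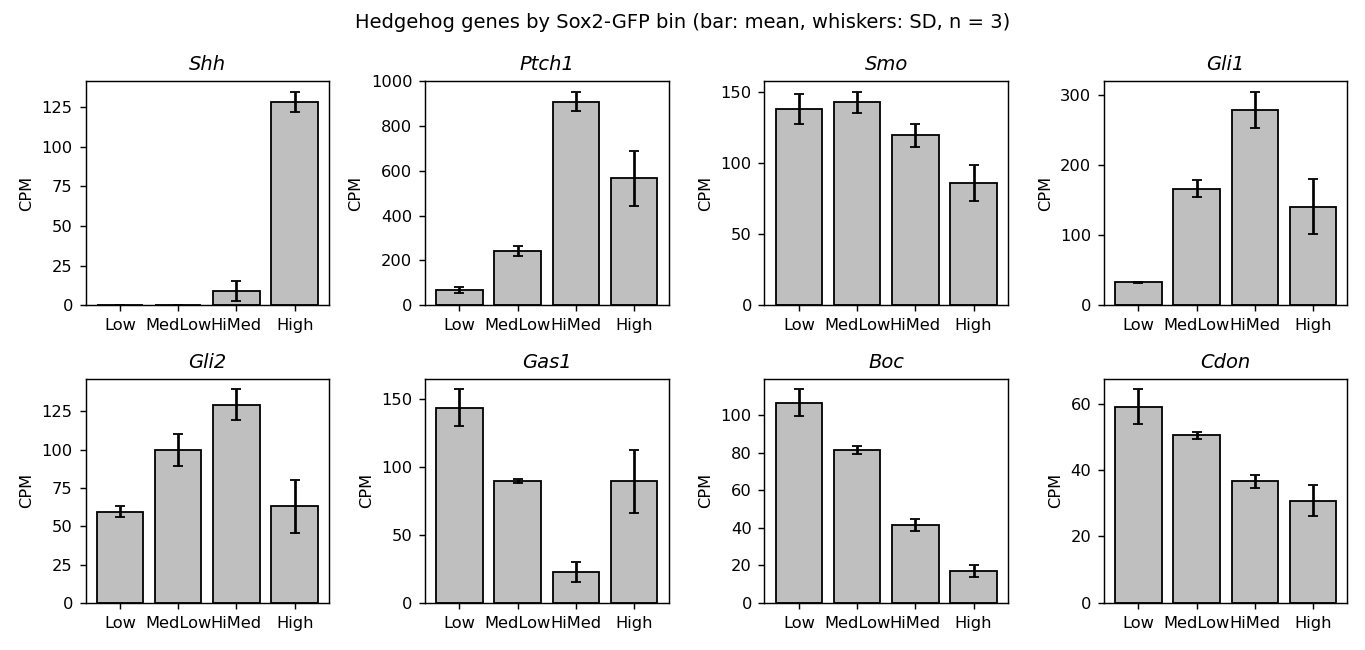
Mean CPM (bars, linear axis from 0) and SD (whiskers, n = 3 libraries) of 8 Hedgehog genes by GFP bin. Ptch1, Gli1 and Gli2 are highest in HiMed, Shh is highest in High at 128 ± 6.48 CPM, and Gas1 is lowest in HiMed at 22.8 ± 7.47 CPM.

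A list of 17 R-spondin receptors, R-spondins and Wnt targets includes Lgr5 itself, and 14 of them were tested. HiMed held the largest mean of 3 of these, Lgr5, Rspo3 and Wif1, where it did so for 16.9% of all genes. Rspo3 was low, at 0.792 ± 0.344 CPM in HiMed and 0.398 ± 0.346 CPM in High. Between HiMed and MedLow 8 of the 14, Lgr5 among them, were higher in HiMed and 1 lower (median 0.68), where 7.38% of all genes were higher and 6.12% lower. Wif1, a secreted Wnt inhibitor, was among the 8, at 323 ± 71.0 CPM in HiMed and 23.97 ± 4.48 CPM in MedLow (3.75, SE 0.26, adjusted p = 1.8e-06). So was Lgr6, a relative of Lgr5, at 304 ± 53.9 CPM in HiMed and 45.9 ± 7.97 CPM in MedLow (2.73, SE 0.16, adjusted p = 3.8e-07). Lgr4 was the 1 lower (-0.78, adjusted p = 7.4e-05). Between HiMed and High, edgeR called 0 higher in HiMed (1 at an unadjusted p below 0.05, and 0 in DESeq2) and 7 lower (median -0.43), against 11.6% and 10.6% of all genes. Notum, which inactivates Wnt ligands, led those, at 46.4 ± 11.3 CPM in HiMed and 489 ± 83.0 CPM in High (-3.39, SE 0.21, adjusted p = 5.2e-07), with Nkd1 (-3.04) and Axin2 (-1.95). Wif1 shared the order of bins of Lgr5, with 255 ± 64.6 CPM in High, and was not called between HiMed and High (0.34, adjusted p = 0.347).

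Partners and relatives of the members were read from lists that leave the members out. Of the 8 caveola genes tested besides Cavin2, 0 had their largest mean in HiMed, where 16.9% of all genes did, so that the count is near the background. Cavin1, the coat protein that all caveolae need, averaged 650 ± 8.79, 582 ± 12.5, 463 ± 9.64 and 235 ± 54.5 CPM in Low, MedLow, HiMed and High, and the caveolin Cav1 41.2 ± 2.59, 48.7 ± 6.90, 33.2 ± 0.538 and 24.4 ± 5.86 CPM. Between HiMed and MedLow 1 caveola gene was higher in HiMed (Cav2, 0.59, adjusted p = 0.0050) and 2 were lower, Ehd2 (-0.80, adjusted p = 0.0034) and Cav1 (-0.55, adjusted p = 0.0254), where 7.38% of all genes were higher and 6.12% lower. Between HiMed and High 4 were higher in HiMed and 2 lower, against 11.6% and 10.6% of all genes, led by Ehd2 (1.34, adjusted p = 4.7e-05) and Cavin1 (0.98, adjusted p = 1.2e-04). Both calls of Cav1 were lost on the TPM scales and without each HiMed library, at adjusted p = 0.0621 to 0.0728 without 1 HiMed library against MedLow and 0.0855 to 0.103 against High.

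Of the relatives of A2m, Pzp had a mean of 0.00779 CPM in HiMed, Mug1 had its largest mean there at 1.28 ± 0.155 CPM, and Mug2 had 0 counts in the 3 HiMed libraries, where 3 counts would be 0.0223 CPM (counting error only). Expected counts of A2m were whole numbers in 11 of 12 libraries, and the fraction in the remaining one was 0.006 counts. The protease inhibitor Cd109 fell from bin to bin, at 204 ± 7.28, 155 ± 16.1, 66.2 ± 5.83 and 27.0 ± 2.03 CPM in Low, MedLow, HiMed and High. It was lower in HiMed than in MedLow (-1.22, SE 0.10, adjusted p = 4.3e-06) and higher than in High (1.29, SE 0.10, adjusted p = 1.4e-06). Lrp1, through which A2m is cleared, also had falling means, at 486 ± 9.08, 445 ± 13.3, 319 ± 37.1 and 170 ± 35.4 CPM. It was higher in HiMed than in High (0.90, adjusted p = 2.2e-04) and lower than in MedLow (-0.48, adjusted p = 0.0225). The call against MedLow was lost without each library of HiMed and MedLow but HiMed replicate 2 (adjusted p = 0.0573 to 0.0892) and on both TPM scales. Over the 5 relatives and receptors tested, 0 were higher in HiMed than in MedLow by edgeR (1 at an unadjusted p below 0.05, and 1 in DESeq2) and 2 were lower. The shares over all genes were 7.38% higher and 6.12% lower. Against High, 3 were higher in HiMed (Cd109, Lrp1 and C3) and 1 lower (C4b), where 11.6% of all genes were higher and 10.6% lower.

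The ligands of Tek were low in every bin. In Low, MedLow, HiMed and High, Angpt1 averaged 1.27 ± 0.406, 1.07 ± 0.248, 0.764 ± 0.795 and 0.853 ± 0.372 CPM. Angpt2 averaged 2.30 ± 0.217, 1.07 ± 0.406, 0.728 ± 0.836 and 0.164 ± 0.143 CPM in the same bins. HiMed replicate 1 had 0 counts for all 7 genes of the angiopoietin group. Of 7 genes of the angiopoietin group besides Tek, 3 were tested, and edgeR called 0 in either direction between HiMed and MedLow or High (0 at an unadjusted p below 0.05, and 0 in DESeq2). The shares over all genes were 7.38% higher and 6.12% lower against MedLow, and 11.6% and 10.6% against High. Of the 2 relatives of Fam171b, Fam171a1 averaged 64.2 ± 7.41 CPM in HiMed and was highest in High, at 80.2 ± 8.68 CPM. Fam171a2 averaged 48.2 ± 6.68 CPM in HiMed and was highest in MedLow, at 74.8 ± 5.77 CPM.

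Of 11 fat cell genes besides Medag, 6 were tested. Between HiMed and MedLow edgeR called 0 higher in HiMed (1 at an unadjusted p below 0.05, and 0 in DESeq2) and 1 lower, the factor Cebpa (-0.58, adjusted p = 0.0123, and 0.0504 without MedLow replicate 3). Between HiMed and High, Cebpa (0.97, adjusted p = 2.2e-04) and Cebpb (0.81, adjusted p = 0.0048) were higher in HiMed. Over all genes 7.38% were higher and 6.12% lower in HiMed than in MedLow, and 11.6% and 10.6% than in High. Adipoq and Lep, hormones of mature fat cells, had 0 counts in all bins.

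Markers of other cell types were read because Tek and Cavin2 are known from endothelium. Of 13 endothelial markers 4 had 0 counts in the 3 HiMed libraries, among them Cdh5, Kdr and Emcn, and 7 were tested. Such markers numbered 6 in Low, 4 in MedLow and 2 in High, with Emcn among them in every bin. The summed level of the 13 was 12.6 to 25.0 CPM in Low, 8.88 to 10.8 CPM in MedLow, 14.4 to 19.2 CPM in HiMed and 45.0 to 81.2 CPM in High. Most of it was Vwf, at 12.5 ± 1.53 CPM in HiMed and 56.5 ± 20.6 CPM in High. HiMed held the largest mean of 3 of the 7, where it did so for 16.9% of all genes, and Low and High held 2 each. The 3 were Eng, Pecam1 and Flt1, at 1.84 ± 0.945, 1.33 ± 0.526 and 0.698 ± 0.216 CPM in HiMed. Between HiMed and MedLow edgeR called 0 of the 7 in either direction (3 higher and 1 lower at an unadjusted p below 0.05, and 2 higher in DESeq2). The median was 1.07, and 7.38% of all genes were higher and 6.12% lower. With the replicate block Vwf was called higher in HiMed than in MedLow (0.80, adjusted p = 0.0267). The 5 fat cell markers summed to at most 0.0362 CPM in HiMed. Fibroblast markers summed to 617 to 659 CPM in Low, 127 to 217 CPM in MedLow, 96.4 to 124 CPM in HiMed and 144 to 148 CPM in High. Dcn made up most of that sum in Low (608 ± 20.8 CPM) and Fn1 in HiMed (70.5 ± 11.7 CPM). Col1a1 averaged 0.800 ± 0.0981 CPM in HiMed, and Col3a1 and Lum had 0 counts there. Pericyte and smooth muscle markers summed to 325 to 384 CPM in Low, 319.5 to 329 CPM in MedLow, 200.4 to 264 CPM in HiMed and 282 to 319 CPM in High. Notch3 made up most of that sum in HiMed (214 ± 35.01 CPM) and High (292 ± 22.5 CPM). Cspg4 averaged 147 ± 9.102 CPM in Low and 18.4 ± 2.30 CPM in HiMed. Abcc9 was the highest of the others in HiMed, at 3.34 ± 1.07 CPM. Tagln averaged 0.167 ± 0.179 CPM there, and Rgs5 had 0 counts. Leukocyte markers summed to 28.7 to 46.8 CPM in Low, 8.38 to 19.8 CPM in MedLow, 31.9 to 68.0 CPM in HiMed and 105 to 312 CPM in High. Most of that sum was Lyz2, at 35.9 ± 19.6 CPM in HiMed and 172 ± 113 CPM in High. In HiMed Itgam averaged 3.67 ± 0.367 CPM, and Ptprc, Cd3e and Adgre1 had 0 counts. Schwann and neuron markers summed to 45.8 to 77.5 CPM in Low, 19.2 to 27.3 CPM in MedLow, 24.6 to 29.2 CPM in HiMed and 23.5 to 25.7 CPM in High. Von Ebner gland markers moved most, with 775 to 2477 CPM in Low, 145 to 248 CPM in MedLow, 33.1 to 65.0 CPM in HiMed and 13.9 to 145 CPM in High. The part of these cell types in the peaks, and in the differences of the members from Low, was not tested.

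The epithelial programs also differed between the bins. Between HiMed and MedLow 7.38% of all genes were higher and 6.12% lower, and between HiMed and High 11.6% and 10.6%. All 8 taste bud keratins and junction genes were higher in HiMed than in MedLow and lower in HiMed than in High, with Krt20 at 40.7 ± 9.32 CPM in HiMed and 435 ± 90.7 CPM in High (-3.42, adjusted p = 3.4e-06). The rise did not begin at Low. Of these 8, edgeR called 2 lower in MedLow than in Low, Krt8 and Krt18. It called 0 higher (1 at an unadjusted p below 0.05, and 0 in DESeq2). Over all genes 2.52% were lower and 4.08% higher in MedLow than in Low. Of 10 basal progenitor genes, 8 were higher in HiMed than in High and 4 lower in HiMed than in MedLow. Krt15 averaged 659 ± 243 CPM in HiMed, against 4885 ± 462 CPM in MedLow (-2.89, adjusted p = 7.9e-06) and 26.4 ± 8.26 CPM in High (4.64, adjusted p = 4.3e-07). Of 10 tested taste lineage factors 6 were higher and 1 lower in HiMed than in MedLow, and 1 was higher and 4 lower in HiMed than in High, with Hes6 at 2.25 and -0.93. Of 10 suprabasal genes 3 were higher and 1 lower in HiMed than in MedLow, and 6 were higher in HiMed than in High, with Krt13 at 3.52. The suprabasal genes summed to 18078 CPM in HiMed replicate 1, the HiMed library in which all 5 members were highest, against 38386 and 32213 CPM in replicates 2 and 3. Of 12 genes of G2 and M phase, 0 had their largest mean in HiMed, where 16.9% of all genes did, and 12 in MedLow. Of these 12, 8 were lower and 0 higher in HiMed than in MedLow, and 6 were higher and 0 lower in HiMed than in High. The part of these programs in the peaks of the members was not tested.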

How the data were processed

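The deposited tables hold estimated counts and TPM values per gene symbol for 12 libraries. Salmon 1.4.0, DESeq2 1.28.1 and build mm39 are named, per the submitters' processing notes. Settings and annotation: not given in the sources used here. Expected counts were deposited unscaled, with 8.24 to 13.0% of values in a library not whole. The TPM values were deposited with the same sum in every library.

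Counts were rounded and fitted with edgeR 4.0.16 in R 4.3.3: filterByExpr with a minimum count of 10 (17432 of 52670 symbols kept, 0.0339% of counts left out), TMM scaling, 1 term per bin and all 12 libraries. The common biological coefficient of variation was 0.366. The main edgeR fit had no replicate term, so its SEs and adjusted p-values leave out the pairing of bins by replicate number. SEs are those the F statistic implies. limma 3.58.1 on log2(TPM + 1) and log2(TPM + 0.1), DESeq2 1.42.0, other scalings and filters, a replicate block and leaving out each library were alternatives. Scripts were tested on simulated data.

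The members, gene lists, motifs and tests were chosen with earlier results of these data known. Named genes are the members, Ptch1, Lgr5, Sox2, up to 4 called genes per list and comparison by fold size among those with 1 CPM, other list genes by value, and the genes with the highest profile overlap (3 per member and 10 for the 5 members, from 5 CPM in HiMed). One gene is not reported here and was left out of its list.

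Replicates are pools of mice, and numbers were taken to pair libraries because the series describes a replicate as a pool that was sorted into bins. The labels do not say that a number marks 1 pool in every bin. Over 11094 genes, the 18 pairs of libraries with 1 number had positively correlated deviations (r 0.0751 to 0.348, 17 above 0.1). The other 36 pairs had r of -0.240 to -0.00770. A pool and a batch shared by a number cannot be told apart from these correlations. Libraries of 1 bin differed by more than counting noise (chi-square per degree of freedom 27.5 to 92.4).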

Additional observations from a re-analysis of the deposited data

How the results depend on the processing

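For the members, 15 fold changes were tested under 20 alternatives. Of these 300 values 289 kept direction and side of the threshold, 10 lost a call (Medag for High over MedLow, Fam171b for MedLow over Low) and 1 gained one (Tek with the replicate block, 0.82). The block changed no other call of the members, Ptch1 or Lgr5, and gave 6 calls of other named genes (Boc, Krt20 and Vwf for MedLow over Low, Krt5, Krt13 and Vwf for HiMed over MedLow). Of the 300 untested HiMed folds, 10 moved by more than 1 SE and none changed sign. Of 6240 values of other named genes, 159 lost a call, 63 gained one and 2 changed sign: Cdon for High over MedLow, at 0.031 with TPM + 1 and 0.024 with TPM + 0.1. The causes were not tested.

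Members called numbered 2 higher in High than in Low under every alternative. For High over MedLow, 1 was lower and 0 in both TPM fits, with 0 to 1 when 1 library was left out. With the block 3 were higher there, in place of 2. For MedLow over Low, 2 were higher and 1 in both TPM fits, with 1 to 2 when 1 library was left out.

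Counts over all genes moved by more than 1.5 times in these cases. With TPM + 1 and TPM + 0.1, genes lower in High than in Low numbered 2158 and 2192 (as reported 3702), those lower in High than in MedLow 1764 and 1846 (3454), those higher in MedLow than in Low 386 and 400.0 (711), those lower in HiMed than in MedLow 423 and 417 (1066), those higher in HiMed than in High 1071 and 1109 (2018) and those lower in HiMed than in Low 1249 and 1223 (1962). Genes lower in MedLow than in Low numbered 263 with TPM + 0.1 and 742 with DESeq2 (440). Leaving out 1 library gave 438 to 816 higher and 239 to 525 lower in MedLow than in Low, and 824 to 1348 higher and 574 to 1208 lower in HiMed than in MedLow.

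Profile overlap among members was 0.848 on 4 bin means and 0.795 to 0.851 without 1 library, and that with Ptch1 0.780 on TPM and 0.773 to 0.824 without 1 library. Mean Pearson r on log2(CPM + 1) was 0.794 among members and 0.778 with Ptch1. With 3 pools per bin, p-values reflect the spread between pools, and genes under about 1 CPM are imprecise.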
